A study of Rattus norvegicus with 48 samples.

Results

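The mature miRNAs of the imprinted Dlk1-Dio3 locus were followed in rat blood plasma through the healing of a skull bone defect. Members were taken by name, as every listed mature miRNA carrying one of 40 miRNA numbers assigned to this locus, whatever its letter, copy or arm suffix. Of the 645 mature miRNAs counted in the series, 71 met this rule, from 42 hairpins, and 1 of the 40 numbers (miR-758) had no row. The rule reads names only, although the locus itself was picked with earlier results of these data known.

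The 48 plasma samples came from 12 rats, each sampled before surgery (week 0, the baseline) and 1, 4 and 8 weeks after a circular defect had been drilled into the calvaria, the roof of the skull. The rats were males, 12 weeks old at surgery by the study's methods, which name them as Sprague-Dawley, whereas Wistar is named elsewhere in the study. Every rat was operated on, and its defect was left empty or filled with a collagen-hydroxyapatite (CHA) scaffold, alone, with a plasmid coding for BMP2 and miR-590-5p, or with extracellular vesicles from human mesenchymal stromal cells. By microcomputed tomography, 6 rats with strong and 6 with weak regeneration had been picked from these groups, unevenly over the treatments, and the treatment of each rat was not mapped here. The baseline samples carried no regeneration label of their own and took that of their animal. No unoperated animals were analysed here, so time since surgery, age and healing cannot be told apart.

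The Dlk1-Dio3 region is expressed from one parental allele at a time. The paternal copy gives the protein-coding genes Dlk1, Rtl1 and Dio3, and the maternal copy gives long non-coding transcripts, Meg3 and a transcript antisense to Rtl1 among them, from which the miRNA hairpins are cut. A mature miRNA comes from the 5′ (5p) or 3′ (3p) arm of its hairpin and recognises target mRNAs mainly through its seed, bases 2 to 8. These miRNAs are known for high levels in the embryo, the placenta and the brain. Plasma miRNAs are released by many tissues, so that release from fewer cells and less release per cell cannot be told apart.

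The label was checked against position. In the RefSeq annotation of the rat genome build GRCr8, all 71 members could be placed on chromosome 6 between the start of Dlk1 (134192491) and the end of Dio3 (135108933). Their hairpins lay within chr6:134298084-134579838, a stretch of 282 kb, and 69 members were on the plus strand. The exceptions were both arms of miR-299b, encoded on the minus strand. With a gap of more than 10 kb taken as a border, the hairpins fell into 3 groups. A proximal group of 10 hairpins and 18 members ran from miR-770 to miR-136 (chr6:134298084-134331416), across the 3′ end of Meg3 (134274056 to 134306249) and the gene Rtl1 (134325231 to 134335780). A middle group held 2 hairpins, miR-341 and miR-370, with 3 members. A distal group of 30 hairpins and 50 members ran from miR-379 to miR-410 (chr6:134543445-134579838).

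A mature sequence was found in RefSeq for 69 members, all but miR-136-5p and miR-127-5p. The sequences below are those of the members with a mean level of at least 10 RPM (reads per 1000000 miRNA reads) over the 48 samples, which carry most of the results. The first set had its seed, in capitals, preceded by U at the 5′ end.
miR-434-3p: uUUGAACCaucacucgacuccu
miR-341: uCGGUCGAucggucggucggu
miR-134-5p: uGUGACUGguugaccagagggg
miR-411-5p: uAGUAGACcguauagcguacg
miR-127-3p: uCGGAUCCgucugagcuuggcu
miR-494-3p: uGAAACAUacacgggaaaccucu
The second set began with A, C or G.
miR-382-5p: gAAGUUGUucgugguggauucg
miR-136-3p: cAUCAUCGucucaaaugagucu
miR-487b-3p: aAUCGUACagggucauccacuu
miR-376c-3p: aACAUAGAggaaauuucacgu
miR-376a-3p: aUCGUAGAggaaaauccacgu
miR-376b-3p: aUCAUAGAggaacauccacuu
miR-382-3p: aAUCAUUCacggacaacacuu
miR-369-3p: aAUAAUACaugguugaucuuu
miR-409a-3p: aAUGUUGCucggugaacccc
miR-323-3p: cACAUUACacggucgaccucu
miR-410-3p: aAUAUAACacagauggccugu

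No seed was shared among these 17 miRNAs, although miR-376a-3p, miR-376b-3p and miR-376c-3p, from neighbouring hairpins of the distal group, are alike over most of their length. Over the 69 sequences there were 66 distinct seeds, and 3 seeds were shared by a pair of members each. The pairs were both arms of miR-299a with those of miR-299b, and miR-381-3p with miR-539-3p. The authors allowed 1 mismatch when they assigned reads to mature miRNAs, so members that differ by no more than 1 base over their shared length may have exchanged reads. This held for 4 pairs: both arms of miR-299a against miR-299b, miR-300-3p against miR-381-3p, and miR-379-3p against miR-411-3p. The pair of this kind with the more abundant partner, apart from miR-299a, was
miR-300-3p: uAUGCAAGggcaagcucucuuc
miR-381-3p: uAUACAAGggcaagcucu
and values of these miRNAs are uncertain to that extent.

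The 71 members together took only 0.0549% of the miRNA reads of a sample at the median, from 0.0206% to 0.200%. The 18 with a mean of at least 10 RPM, called the abundant members from here on, made up 81.5% of all member reads, and the 5 leading ones alone made up 47.5%. In order of mean level these 5 were miR-434-3p at 80.7 RPM, miR-382-5p at 59.0, miR-136-3p at 58.9, miR-487b-3p at 54.1 and miR-376c-3p at 47.4 RPM. The second to the fourth differed from each other by far less than their spread between rats. Next came miR-341 (33.3 RPM), miR-376a-3p (22.5), miR-382-3p (21.3), miR-134-5p (19.9), miR-369-3p (18.4), miR-411-5p (17.9), miR-409a-3p (14.9), miR-323-3p (12.2), miR-127-3p (11.6), miR-494-3p (11.4), miR-410-3p (11.3), miR-136-5p (11.3) and miR-376b-3p (10.3 RPM). The member nearest below the limit was miR-431 at 8.53 RPM. Of the other 53 members, 27 had a mean of 1 to 10 RPM and 26 a mean under 1 RPM, and 18 members were seen in fewer than 10 of the 48 samples. No member was without any read, and 16 were seen in every sample.

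Depth set the limit for these levels. Totals ranged from 393259 to 1586398 miRNA reads per sample, so 10 RPM stood for between 3.93 and 15.9 reads. The standard errors given below come from fits that also estimate the spread between samples. The week 8 samples differed from the others as a set. UniSp2, a synthetic RNA added at extraction, gave 91.1 to 143.9 reads per 1000 miRNA reads at week 8 and 23.3 to 60.4 at the other weeks, and the median total was 609384 at week 8 against 1020768 at baseline. The labels name no batch, and the week 8 samples cannot be told apart from whatever their libraries shared.

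At baseline, 3 rats stood apart. The summed level of all members was 1997 RPM in rat 25 and 1874 in rat 26, both weak regenerators, and 1617 in rat 29, a strong regenerator, whereas the other 9 rats lay between 464 and 832 RPM with a median of 594. These 3 rats exceeded every other rat in 10 of the 18 abundant members. Their mean was between 2.39 and 6.66 times the median of the other 9 rats, member by member, the lowest ratio being that of miR-323-3p and the highest that of miR-136-5p. Rats 25 and 26 were the highest rats for the distal members miR-487b-3p, miR-494-3p and miR-369-3p, and rat 29 was the highest for miR-434-3p (303 RPM), miR-134-5p (97.8 RPM), miR-411-5p (96.4 RPM) and miR-323-3p (38.8 RPM). Neither the erythrocyte miRNAs (26.6% to 30.4% of the reads in these 3 against 23.6% to 33.5% in the others) nor the UniSp2 ratio (33.6 to 35.4 against 23.4 to 41.8 per 1000) set these samples apart. The muscle miRNAs did so for rat 29, with 10054 RPM against 6033 RPM in the next rat, but not for rats 25 and 26 (1762 and 1180 RPM). Rat 25 had the highest sums of the mesenchymal (156377 RPM, next 141899) and the liver miRNAs (14770 RPM, next 13565) of the 12 rats, and rats 26 and 29 lay within the range of the others in both. Their part in the high baseline levels was not tested. After surgery the 3 rats came back towards the others, to 653 to 997 RPM at week 1 against 226 to 978 RPM in the other 9, although rat 25 kept the highest sum at weeks 4 and 8. Since every later week is compared with this baseline, results are given below with and without these 3 rats, a choice made after seeing the data. The 3 were picked for their high baseline sums, so leaving them out lowers the baseline. Their return towards the others and smaller falls without them are therefore partly built into that choice.

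**Figure D1:**
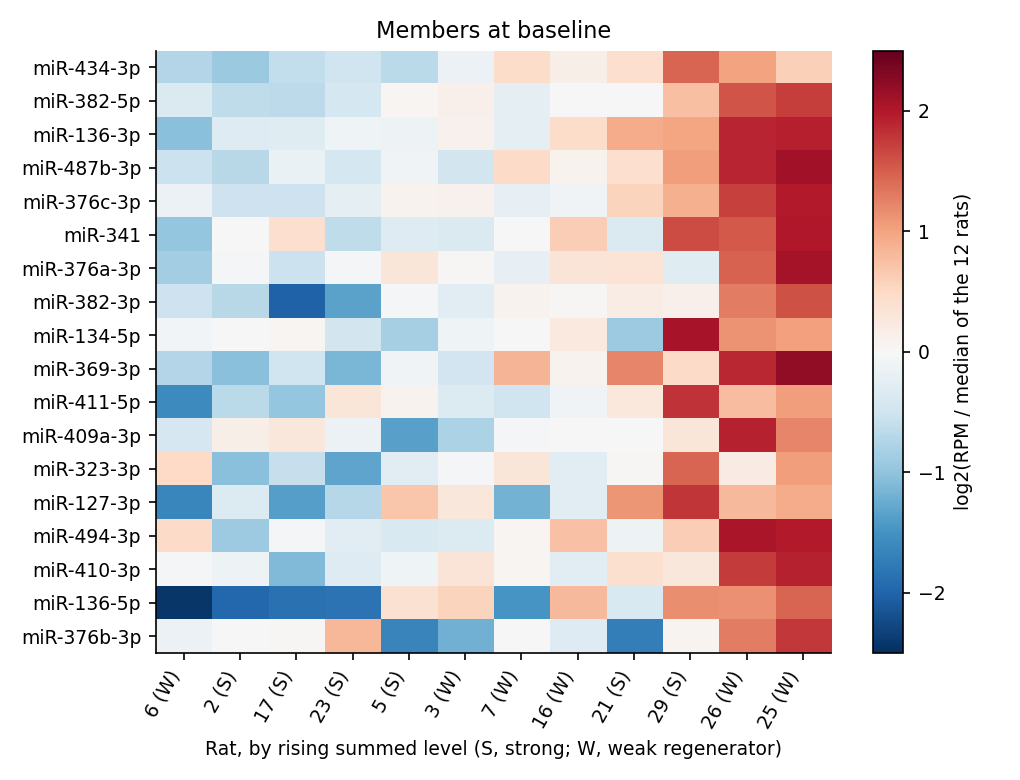
Level of the 18 abundant members (rows, by falling mean level) in the 12 baseline samples (columns, by rising summed level), as log2 of the ratio to the median of the 12 rats. The 3 columns at the right, rats 29, 26 and 25, are red in nearly every row.

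Such covariation was general among the members. Deviations of log2(RPM + 1) from the mean of the week had a median Pearson correlation of 0.56 over all pairs of the 18 abundant members across the 48 samples. Other groups covaried too: the median was 0.85 over the 4 muscle miRNAs above 10 RPM, 0.34 over the 11 miRNAs of the X-linked miR-322 cluster, 0.22 over the 11 mesenchymal and 0.15 over the 9 erythrocyte miRNAs. The 4 muscle miRNAs were miR-133a-3p, miR-133b-3p, miR-1-3p and miR-1b, and an exchange of reads between like sequences was not checked for them. For pairs of a member with one of the other 292 miRNAs above 10 RPM the median was 0.09, and among those 292 miRNAs it was 0.06. Among the 107 of them that were no more abundant than miR-434-3p it was likewise 0.06. The closest pair was miR-382-5p with miR-487b-3p (0.87), both distal, followed by miR-136-3p with miR-341 (0.85), a proximal and a middle member, and miR-136-3p with miR-487b-3p (0.85). At the other end stood miR-134-5p, whose median correlation with the other members was 0.33 and which had a value of 0.00 with miR-369-3p. These correlations are descriptions: the samples share rats, the reads of a sample share a library, and the 3 rats above weigh in them.

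The question over time was how the levels differed from baseline after surgery. The summed level had a median of 670 RPM over the 12 rats before surgery, with a range of 464 to 1997. One week later the median was 551 RPM (226 to 997), by week 4 it was 579 RPM (280 to 1305), and in the last samples it was 372 RPM (205.9 to 863). Compared with its own baseline, 9 of 12 rats were lower after 1 week, 10 after 4 and 11 after 8 weeks, rat 5 being the last exception. The mean per-rat difference between week 8 and baseline was -1.08 ± 0.71 on the log2 scale (SD, n = 12 rats), and -0.81 ± 0.47 over the 9 rats without 25, 26 and 29. A sum over chosen members carries no test. The 53 rarer members on their own showed the same order, with median sums of 129.4, 98.2, 100.4 and 64.5 RPM in the order of the weeks.

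**Figure D2:**
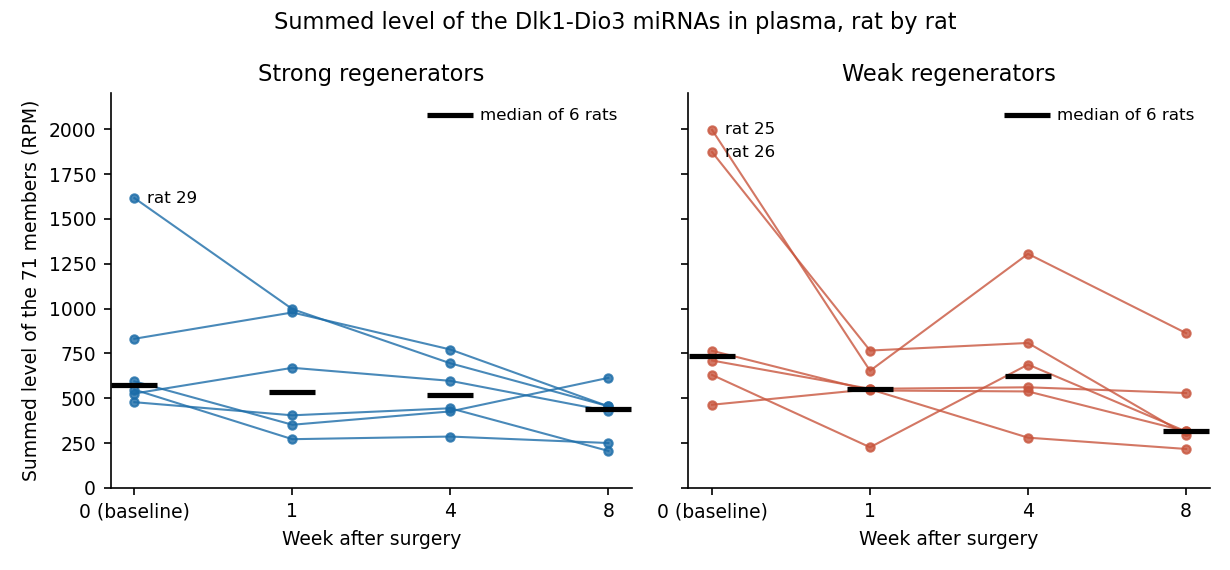
Summed level of the 71 members in RPM (y axis, from 0) for each rat (lines) at weeks 0, 1, 4 and 8 after surgery, strong regenerators left, weak regenerators right, with black bars at the median of 6 rats. Rats 25, 26 and 29 start at 1617 to 1997 RPM, and the medians at week 8 are 441 RPM for strong and 315 RPM for weak regenerators.

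One week after surgery few members could be tested. The filter on low levels, which was set to give the most calls over the whole table, removed every miRNA below 21.6 CPM (counts scaled to 1000000), which left 7 of the 71 members. Of these, miR-434-3p, encoded in the proximal group antisense to Rtl1, was significantly lower. It ranged from 58.7 to 303 RPM at baseline (median 112) and from 36.7 to 144.4 RPM at week 1 (median 72.4), with overlapping ranges, and was lower in 9 of 12 rats. The log2 fold change was -0.65 ± 0.24 (SE), with an adjusted p of 0.0483 (edgeR). No member was called higher by edgeR, DESeq2 or limma-voom. In all, 7.78% of the 257 miRNAs tested were called lower and 12.5% higher at week 1, so a single call among 7 is near the background. Before adjustment, 13 of the 71 members were lower and 1 was higher at a p under 0.05, which is 19.7% of the members beside 18.9% of all 645 miRNAs. With the rat as a block, the filter kept 39 members and 5 were called lower: miR-434-3p (log2 fold change -0.56), miR-411-5p (-1.08), miR-299a-3p (-1.21), miR-668 (-1.48) and miR-379-5p (-2.12). The same count of 5, miR-434-3p among them, was given by DESeq2 without the block. In the reported fit, miR-411-5p was removed by the filter and so had no adjusted p. Its log2 fold change there was -1.18 ± 0.29 (unadjusted edgeR p 0.000193), lower in 10 of 12 rats. The study lists miR-411-5p among the miRNAs lower than baseline at all 3 later timepoints. The call of miR-434-3p was lost with library size scaling (adjusted p 0.0731), limma-voom (0.130), filterByExpr (0.0547) and only the weeks compared (0.0626). It was also lost in 9 of the 12 fits with a rat left out, namely rat 3, 5, 7, 16, 21, 23, 25, 26 or 29, with adjusted p of 0.0398 to 0.124 over the 12. Without rats 25, 26 and 29 together none was called, and miR-434-3p had a log2 fold change of -0.35 ± 0.22.

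At week 4 all 71 members were tested, and 2 were called lower and none higher by edgeR (9 and 1 at an unadjusted p under 0.05, beside 115 of all 645, and none higher by DESeq2 or limma-voom), which is 2 of 71 beside 4.03% lower and 0.155% higher among all 645 miRNAs. The lower ones were miR-411-5p, the second hairpin of the distal group, and miR-127-3p, from the transcript antisense to Rtl1. For miR-411-5p the baseline samples ranged from 9.12 to 96.4 RPM (median 27.5) and the week 4 samples from 6.96 to 32.7 RPM (median 13.6), and 11 of 12 rats went down. The log2 fold change was -1.10 ± 0.29, with an adjusted p of 0.0118. For miR-127-3p the ranges were 4.98 to 53.2 RPM (median 15.7) and 0.875 to 15.2 RPM (median 6.39), again with 11 of 12 rats lower. Its log2 fold change was -1.26 ± 0.37, with an adjusted p of 0.0335. Neither was called without the 3 rats, with log2 fold changes of -0.81 ± 0.29 and -1.27 ± 0.43 and adjusted p of 0.0820 and 0.0661, so that the estimate of miR-127-3p was nearly the same and its error larger. Instead 1 rarer member, miR-329-5p, was called lower in that fit.

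At week 8, of 64 members tested, 32 were significantly lower and none was higher by edgeR. At an unadjusted p under 0.05 there were 37 lower members and 0 higher, beside 293 of all 645 miRNAs in either direction, DESeq2 called 23 lower and 0 higher, and limma-voom 22 lower and 5 higher, the 5 resting on 1 to 4 reads each. The background was high as well, with 28.1% of 595 miRNAs called lower and 14.8% higher. Of the 18 abundant members 12 were called lower, beside 118 of the 310 miRNAs above 10 RPM. All 18 had a log2 fold change below 0, with a median of -0.90, compared with -0.13 over the 310. The corresponding medians were -0.44 and -0.03 at week 1 and -0.43 and 0.08 at week 4. Scaled to UniSp2 instead of the miRNA total, the 310 miRNAs themselves had a median of -2.01 at week 8 and 57 members were called lower, and relative to that shift the median of the abundant members was -0.85, compared with -0.78 in the main scaling. Without rats 25, 26 and 29, 17 members were called lower, all among the 32, beside 120 miRNAs called lower over the whole table in that fit. There the median of the abundant members was -0.46 and 11 of the 18 were below 0, compared with a median of 0.02 over all miRNAs above 10 RPM. Both the 18 and the 310 were chosen by their mean over all weeks, baseline included, so a high level at any week helped a miRNA to enter. For example, miR-376b-3p had a mean of 16.5 RPM at baseline and 3.44 RPM at week 8. These counts and medians describe the members and are no test against other miRNAs.

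**Figure D3:**
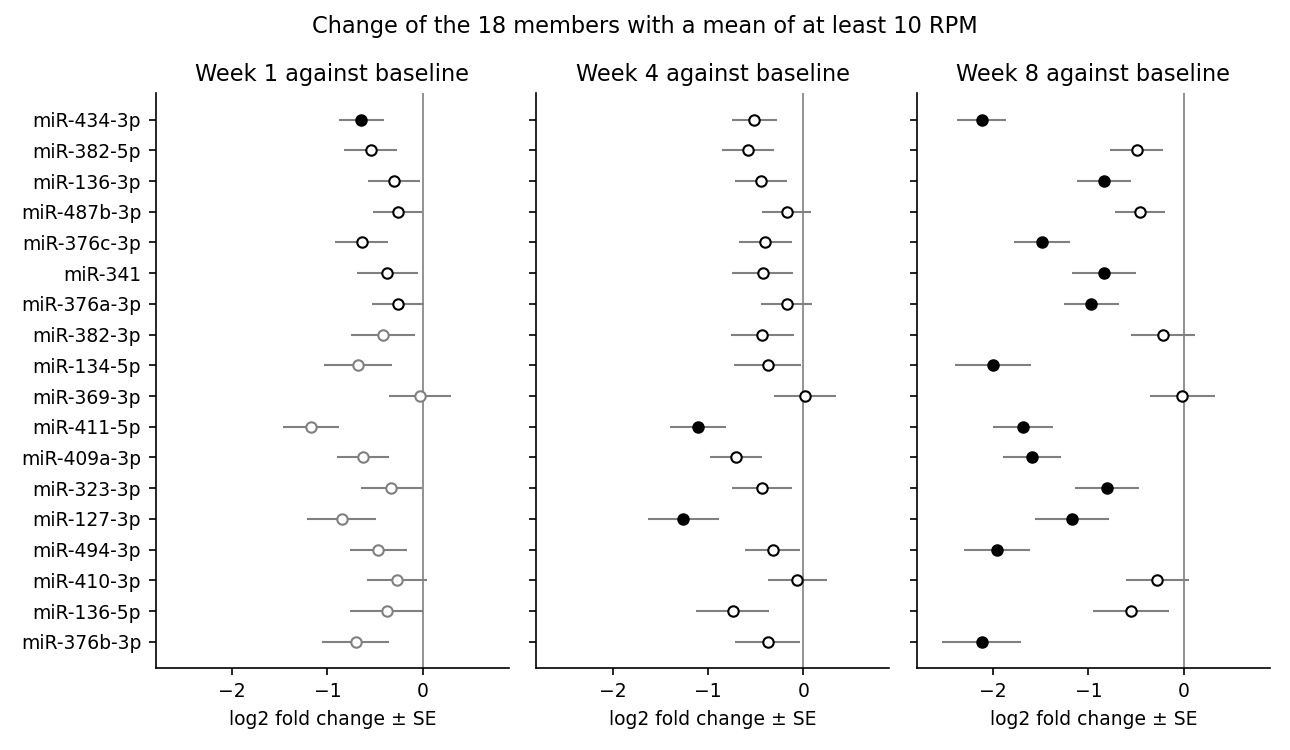
Log2 fold change against baseline (x axis) with its standard error for the 18 abundant members (y axis, by falling mean level) at weeks 1, 4 and 8. Filled points were called at an FDR under 0.05, open points were not, and grey open points were removed by the filter on low levels. At week 8 miR-434-3p, miR-376b-3p, miR-134-5p and miR-494-3p lie near -2 and miR-369-3p near 0.

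The most abundant member fell most clearly. miR-434-3p had 9.71 to 58.2 RPM at week 8 (median 25.1), below every baseline sample, and was lower in 12 of 12 rats, with a log2 fold change of -2.12 ± 0.25, a 4.35-fold decrease, and an adjusted p of 6.613e-10. Without rats 25, 26 and 29 it was -1.90 ± 0.25. Another 3 members fell about as far. The middle of the distal group held miR-376b-3p, with 4.15 to 46.4 RPM at baseline (median 13.7) and 0 to 9.39 RPM at week 8 (median 3.18), lower in 11 rats. Its log2 fold change was -2.12 ± 0.42, with an adjusted p of 3.091e-05. The level of miR-134-5p, a miRNA known for its role in neuronal dendrites, went from 12.4 to 97.8 RPM (median 23.3) to 1.45 to 25.2 RPM (median 5.24) and was lower in all 12 rats. Its log2 fold change was -2.003 ± 0.40, with an adjusted p of 3.558e-05. For miR-494-3p the ranges were 6.05 to 46.9 RPM (median 11.3) and 1.09 to 7.51 RPM (median 3.99), also lower in all 12 rats, with a log2 fold change of -1.96 ± 0.34 and an adjusted p of 4.464e-06. Baseline and week 8 overlapped for these 3 members and not for miR-434-3p.

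Decreases of about 3-fold were seen for miR-411-5p, miR-409a-3p and miR-376c-3p. The first was called lower at week 4 and had a low estimate at week 1, where the filter had removed it. It had 1.619 to 20.8 RPM at week 8 (median 10.1), lower than baseline in 12 of 12 rats. Its log2 fold change was -1.68 ± 0.32, with an adjusted p of 1.319e-05. At the distal end of the locus, miR-409a-3p went from 7.28 to 71.3 RPM (median 18.7) to 1.41 to 16.9 RPM (median 6.19), lower in 11 rats, with a log2 fold change of -1.59 ± 0.30 and an adjusted p of 1.72e-05. For miR-376c-3p, 34.5 to 193 RPM (median 49.4) at baseline stood against 9.71 to 76.9 RPM (median 15.1) at week 8, lower in 11 rats, with a log2 fold change of -1.49 ± 0.30 and an adjusted p of 3.864e-05. These 7 miRNAs, from miR-434-3p to miR-376c-3p, were called lower at week 8 under every alternative fit of the week comparisons, the one without the 3 rats included, where their log2 fold changes ran from -0.94 (miR-376c-3p) to -1.90 (miR-434-3p).

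The remaining 5 called abundant members changed less and depended on the 3 rats. They were miR-127-3p (log2 fold change -1.18 ± 0.39, adjusted p 0.0112), miR-376a-3p (-0.97 ± 0.29, 0.00518), miR-136-3p (-0.84 ± 0.28, 0.0129), miR-341 (-0.84 ± 0.34, 0.0396) and miR-323-3p (-0.81 ± 0.34, 0.0486). Each was lower in 8 to 10 of 12 rats, and baseline and week 8 overlapped in each. For miR-136-3p, as an example, the range was 24.9 to 197 RPM at baseline (mean 79.8 ± 58.4, SD) and 17.8 to 76.7 RPM at week 8 (mean 41.6 ± 19.5). Without rats 25, 26 and 29 none of the 5 was called, and the log2 fold change was -0.53 for miR-127-3p, -0.58 for miR-376a-3p, -0.09 for miR-136-3p, 0.00 for miR-341 and -0.40 for miR-323-3p. With a single rat left out, the call of miR-323-3p was lost for 9 of 12 rats (3, 5, 6, 7, 17, 21, 23, 26 and 29). That of miR-341 was lost for 8 (2, 6, 16, 17, 23, 25, 26 and 29), that of miR-136-3p for rats 23, 26 and 29, and that of miR-127-3p for rat 29. With all rats kept, the call of miR-341 was also lost with DESeq2, limma-voom and RLE scaling. That of miR-323-3p was lost with DESeq2, RLE scaling and only the weeks compared.

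Of the abundant members, 6 were not called at any week. Both arms of miR-382, miR-487b-3p, miR-369-3p, miR-410-3p and miR-136-5p had log2 fold changes between -0.55 (miR-136-5p) and -0.02 (miR-369-3p) at week 8. The second most abundant member, miR-382-5p, had 38.9 to 204 RPM at baseline (median 61.7), 14.4 to 97.2 at week 1 (median 44.6), 15.2 to 126.7 at week 4 (median 49.3) and 24.9 to 129.5 RPM at week 8 (median 49.8). The difference at week 8 was -0.49 ± 0.28, with an adjusted p of 0.153. For miR-487b-3p the median was 43.5 RPM at baseline (26.8 to 186) and 39.8 RPM at week 8 (21.1 to 113), a difference of -0.46 ± 0.26 with an adjusted p of 0.162. For miR-369-3p it was 12.5 RPM at baseline (5.65 to 58.3) and 17.3 RPM at week 8 (5.45 to 39.4), and 6 of 12 rats were lower. Without the 3 rats the week 8 estimates of all 6 turned positive, from 0.04 (miR-382-5p) to 0.65 (miR-369-3p), and none was called. An estimate that misses the threshold does not show that a level held.

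**Figure D4:**
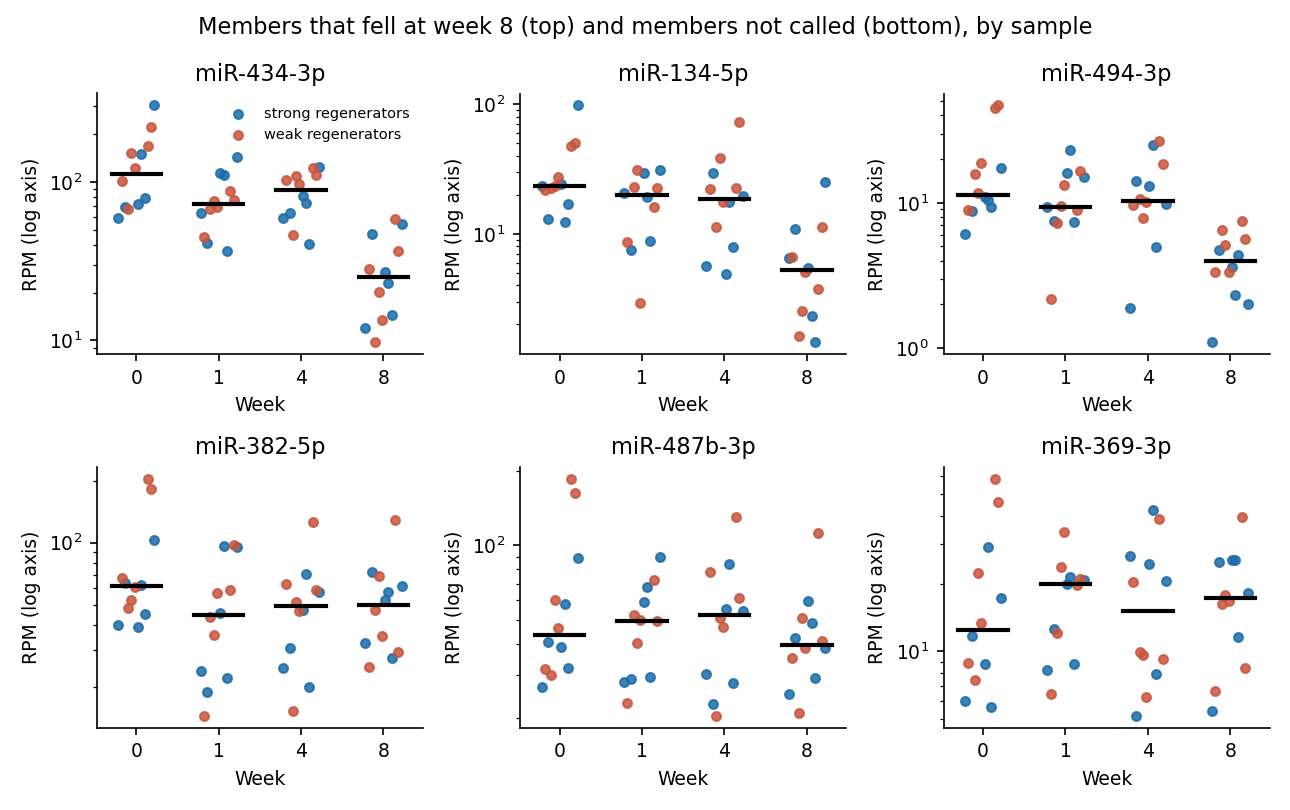
Level in RPM (log axis) of 6 members in each sample at weeks 0, 1, 4 and 8, with strong regenerators in blue, weak regenerators in red and black bars at the median of the 12 rats. In the top row miR-434-3p, miR-134-5p and miR-494-3p have week 8 medians of 25.1, 5.24 and 3.99 RPM against 112, 23.3 and 11.3 RPM at baseline, and in the bottom row the medians of miR-382-5p, miR-487b-3p and miR-369-3p are 49.8, 39.8 and 17.3 RPM against 61.7, 43.5 and 12.5 RPM.

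Position did not sort the members by their week 8 change. Of the proximal group, 10 of 17 tested members were called lower, of the middle group both tested members, and of the distal group 20 of 45. Among abundant members the median log2 fold change was -1.01 for the 4 proximal and -0.97 for the 13 distal ones, and the middle one, miR-341, had -0.84. Close neighbours differed: miR-134-5p (-2.003) starts 0.37 kb from miR-382-5p (-0.49), and miR-409a-3p (-1.59) and miR-369-3p (-0.02) start 0.27 kb apart. Read by first base, all 6 abundant members beginning with U were called lower, with a median log2 fold change of -1.82, and of the 8 beginning with A, 4 were called lower, with a median of -0.71. Both members beginning with C were called (median -0.82), and the 1 beginning with G was not (-0.49). Among the other miRNAs above 10 RPM the medians were -0.35 for 111 beginning with U, 0.24 for 75 with A, -0.02 for 53 with C and 0.04 for 23 with G. Of these, 49 beginning with U, 22 with A, 19 with C and 6 with G were called lower. GC content had a Pearson correlation of -0.27 with the change over 17 abundant members, and of -0.07 over 262 other miRNAs. These are descriptions over miRNAs that share samples, and they were not tested.

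**Figure D5:**
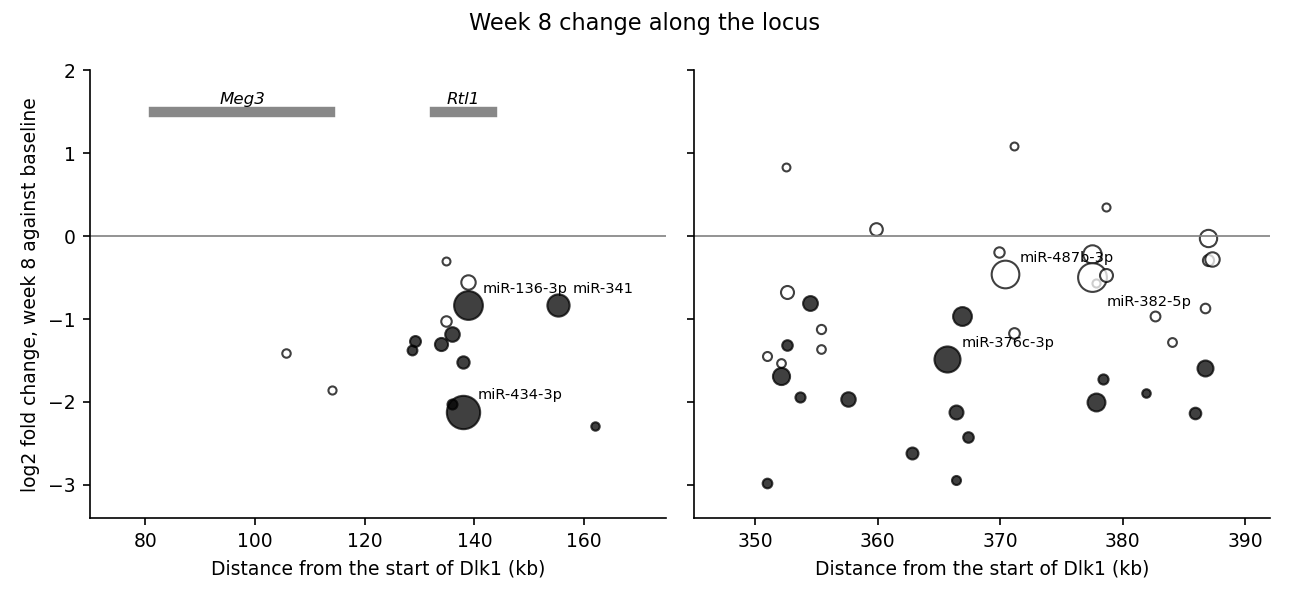
Log2 fold change at week 8 (y axis) against the distance of the hairpin from the start of Dlk1 in kb (x axis), proximal and middle groups left, distal group right, for the 54 tested members with a read at week 8. Filled circles were called lower, area grows with the mean level, and grey bars mark Meg3 and Rtl1. Called and uncalled members lie side by side in both panels.

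Both arms of a hairpin are cut from one precursor and so give a second view of it. Both arms were listed for 29 hairpins, of which 16 had the 3p arm and 13 the 5p arm in excess. Arm usage ranged from near balance, as for miR-493 (5p to 3p, 1.42-fold), to an excess of 338-fold for miR-323-3p and 232-fold for miR-494-3p over their 5p arms. The 2 largest folds are imprecise. miR-323-5p had a mean of 0.036 RPM with reads in 1 sample, and miR-494-5p 0.049 RPM with reads in 2 samples. In 11 hairpins both arms had a mean of at least 1 RPM, and in all 11 both estimates at week 8 were below 0. Both arms were called lower in 3 of them, miR-434, miR-127 and miR-376b, and 1 arm in 5. For miR-434 the minor 5p arm, with 6.96 RPM, had a log2 fold change of -1.52 ± 0.45 beside -2.12 for the 3p arm. The 5p arm of miR-127 had -2.03 ± 0.59 beside -1.18 for the 3p arm, and that of miR-376b had -2.94 ± 0.73 beside -2.12. Neither arm of miR-382 was called, and the log2 ratio of its 5p to its 3p arm was 1.61 ± 0.43 at baseline and 1.38 ± 0.46 at week 8 (mean ± SD, n = 12), a shift within the spread between rats. For miR-136 it was -2.48 ± 0.76 and -2.16 ± 0.71.

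Among the 53 rarer members, 20 of the 46 tested at week 8 were called lower and none higher. As background, 167 of all 595 tested miRNAs were called lower, and 118 of those calls fell on the 310 miRNAs above 10 RPM. Without rats 25, 26 and 29, 10 of these 20 were still called. The 10 that were not are miR-431, miR-434-5p, miR-127-5p, miR-665, miR-370-3p, miR-300-3p, miR-154-5p, miR-541-3p, miR-770-3p and miR-495. The member nearest the limit of 10 RPM, miR-431, had a median of 9.85 RPM at baseline (0.829 to 44.6) and 4.64 RPM at week 8 (0 to 18.8), with a log2 fold change of -1.30 ± 0.48 and an adjusted p of 0.0235. Of the other proximal members, miR-434-5p, miR-127-5p, miR-665 (-1.27) and miR-337-5p (-1.38) were called, together with miR-370-3p (-2.29) of the middle group. In the distal group log2 fold changes were -2.98 for miR-379-5p, -2.94 for miR-376b-5p, -2.61 for miR-667-3p, -2.42 for miR-300-3p, -2.13 for miR-541-5p, -1.94 for miR-380-3p, -1.89 for miR-154-5p, -1.72 for miR-668 and -1.31 for miR-299a-5p. The value of miR-300-3p is subject to the overlap with miR-381-3p described above, and that of miR-299a-5p to the overlap with miR-299b-5p.

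The other 5 called members had no read in any week 8 sample, so that only a bound could be given, against 3 reads over the 12 samples together, or 0.391 RPM. Baseline reads over the 12 samples numbered 13 for miR-493-5p, 12 for miR-541-3p, 11 for miR-770-3p, 9 for miR-299b-5p and 7 for miR-495. Relative to the bound these were at least 2.94-fold, 2.72-fold, 2.49-fold, 2.04-fold and 1.58-fold lower at week 8. None of these 5 was called lower with DESeq2 or limma-voom. With the rat as a block, miR-299b-5p, miR-495 and miR-154-5p were not called (adjusted p 0.0629, 0.0881 and 0.0845) and 30 members were called in all.

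How many members were seen at all moved the same way. Before surgery a sample had reads of 47.9 ± 4.6 members (mean ± SD, n = 12), and in the later weeks of 43.5 ± 6.7, 45.0 ± 5.1 and 33.8 ± 4.7 members. Since week 8 samples were shallower, all samples were thinned to 393259 reads, after which the means were 41.9 ± 4.1, 36.9 ± 6.3, 38.1 ± 4.7 and 29 ± 4.3. Over all 645 miRNAs the thinned samples had reads of 428 ± 8.42 at baseline and 401 ± 12.6 at week 8. The difference at week 8 was therefore larger than the spread between rats at equal depth. Thinning evens out the read depth only, not the amount of miRNA that entered a library. The higher UniSp2 ratio of the week 8 samples, given above, remains after it. Its part in the number of members seen was not tested.

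Strong and weak regenerators were compared to ask whether the members differed with the outcome of healing. The summed level at baseline had a median of 571 RPM in strong (478 to 1617) and 737 RPM in weak regenerators (464 to 1997), n = 6 each. At weeks 1, 4 and 8 the medians were 537 and 551, 520 and 624, and 441 and 315 RPM, with overlapping ranges at every week. Over all weeks no member was called by edgeR, DESeq2 or limma-voom, beside 0% of all 645 miRNAs by edgeR. Of the 71 members, 5 had an unadjusted p under 0.05, as had 64 of all 645. The abundant ones of these were miR-487b-3p (strong minus weak, -0.43 ± 0.19 on the log2 scale, adjusted p 0.335) and miR-382-5p (-0.41 ± 0.20, adjusted p 0.442), both lower in strong regenerators. This fit takes the 4 samples of a rat as independent. On rat means of log2(RPM + 1), the exact permutation test over 12 rats gave p of 0.452 and 0.459 for the same miRNAs.

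Nor was any member called at a single week by the same 3 tools, where the background was 0% at weeks 0, 1 and 4 and 0.155% at week 8. At baseline 16 of the 18 abundant members were lower in strong regenerators by their estimates, with a median of -0.67. Of the 18, 6 had an unadjusted edgeR p under 0.05, beside 24 of the 310 miRNAs above 10 RPM. The lead was taken by miR-494-3p (-1.19 ± 0.39, adjusted p 0.535), for which the exact permutation test over rats gave a p of 0.0563. Of the 3 rats with high baseline levels 2 were weak regenerators. At baseline 7 of the 71 members had an unadjusted p under 0.05, beside 42 of all 645 miRNAs. In the later weeks 4, 3 and 2 members had one, beside 32, 25 and 35 of the 645. The median of the abundant members was 0.10 at week 1 (8 of 18 below 0), -0.37 at week 4 (15 of 18) and -0.15 at week 8 (11 of 18). The change from baseline did not differ significantly between the groups for any member at weeks 1, 4 or 8, with a background of 0% in each of these comparisons. At an unadjusted p under 0.05 there were 2, 4 and 3 members, beside 27, 38 and 26 of all 645 miRNAs. Exact two-sided permutation tests of the 18 abundant members at each week and over all weeks, 90 in all with a smallest possible p of 0.00216, gave 1 p under 0.05. It was that of miR-494-3p at week 8, at 1.92 in strong and 2.59 in weak regenerators on the log2(RPM + 1) scale (exact permutation p = 0.0390, 0.936 after adjustment).

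Other rows of the locus and of other sources were read beside the members. Outside the rule, 10 further mature miRNAs with a row lay between Dlk1 and Dio3 by position, and all but miR-1247-5p had a mean of at most 1.31 RPM. This miRNA, encoded next to Dio3 and 913 kb from the start of Dlk1, went the other way, from a median of 36.7 RPM at baseline to 67.9 RPM at week 8 (log2 fold change 0.76 ± 0.25, adjusted p 0.0100). It was the 1 of the 10 called at week 8. Of the 10 erythrocyte miRNAs listed, among them miR-451-5p and miR-486, 5 were called higher and 1 lower at week 8, and their sum ran from 235550 to 335067 RPM at baseline and from 320073 to 430208 RPM at week 8, with no defining marker at 0. With these miRNAs left out of the total, the summed level of the members still differed by -0.90 ± 0.73 (log2, SD over 12 rats) at week 8. Of the 15 muscle miRNAs 1 was lower and 1 higher, with sums of 329.4 to 10054 and 897 to 8030 RPM. Of the 19 neuronal miRNAs 1 was lower and 4 were higher, with sums of 4674 to 7804 and 4985 to 10232 RPM, the brain-enriched miR-124-3p having a mean of 3.04 RPM. Of the 12 mesenchymal and cartilage miRNAs, 6 were lower and 1 higher, with sums of 96153 to 156377 and 35547 to 102264 RPM. Other lists had lower sums at week 8 as well. Of the 12 miRNAs of the X-linked miR-322 cluster, 11 were called lower and none higher, with a median log2 fold change of -1.59 and a mean sum of 6442 RPM at baseline and 1903 RPM at week 8. Of the 4 arms of miR-342 and miR-345, encoded on the same chromosome outside the imprinted region, 3 were lower and none higher, with mean sums of 10227 and 5359 RPM. Of the 8 liver miRNAs 2 were lower and 3 higher, with mean sums of 9864 and 5714 RPM. Of the 11 platelet and leukocyte miRNAs 3 were lower and 1 higher, with mean sums of 108278 and 91029 RPM. The median log2 fold change was 0.29 for the liver and 0.03 for the platelet and leukocyte miRNAs, although their sums were lower. A fall at week 8 was therefore not particular to the members, and the part of these lists in the result was not tested.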

How the data were processed

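Small RNA of 48 plasma samples (12 rats, weeks 0, 1, 4 and 8) was analysed from raw counts of reads for 645 mature miRNAs and 3 spike-ins, which the authors deposited without normalization. Per the labels, libraries followed a single-adapter protocol (RealSeq), and reads were handled with FastQC 0.11.9, cutadapt 3.3, Bowtie 1.3.0 and MultiQC 1.10. By the study's methods, reads went to the rat genome and then to mature miRNAs with miRDeep2, with 1 mismatch allowed, whereas the submitters' processing notes name the human build GRCh38.p12. How reads that match several miRNAs were shared is not given in the sources used here. Columns of no sample numbered 0.

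Levels are in RPM, reads per 1000000 miRNA reads, spike-ins left out. Tests used edgeR 4.0.16 in R 4.3.3 (quasi-likelihood, TMM, two-sided) on all 645 miRNAs, with an independent filter on mean CPM that follows DESeq2, and Benjamini-Hochberg adjustment with calls at an FDR under 0.05. The week comparisons had regeneration as a covariate. Single weeks and differences between groups came from a fit with 8 groups. Exact permutation tests over rats, thinning and tables used Python 3.11.15, numpy 2.4.6, scipy 1.17.1 and pandas 2.3.3. The fitting code was tested on simulated data with known answers.

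The number in a sample's label is that of its animal, so equal numbers share a rat. Deviations from group means had a mean correlation of 0.107 within and -0.0289 between rats, with 6 of 12 rats over 0.1. The reported fit had no term for the rat, as the study's methods name none, and a fit with a block for the animal was tried beside it. Further alternatives were RLE, library size and UniSp2 scaling, no filter, filterByExpr, DESeq2 1.42.0, limma-voom (limma 3.58.1), summed samples of a rat, only the weeks compared, and leaving out each rat. The rule for members reads only names, but the locus with its members, the lists and the tests were chosen with earlier results of these data known. Named are members whose mean level reached 10 RPM, all called members and the member nearest below that level. Positions and sequences are from RefSeq (GRCr8), no coordinates of the authors' build were used, and treatments, bone volumes and the other spike-ins were not analysed here.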

Additional observations from a re-analysis of the deposited data

Results flagged for a closer look

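Within the groups of 6 samples, the highest or lowest sample was set against the others for 20 quantities, the 18 abundant members and the summed levels of all and of the rarer members, in 8 groups each. In 15 of these 160 groups 1 sample stood apart by Dixon's test, where chance alone marks about 5% if values are normally distributed. The test was run on RPM without a log transform, so for skewed levels that share can be higher. The quantities are not independent.

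In rat 29, a strong regenerator, 7 quantities stood apart at baseline. They were the summed level of all members (1617 RPM, the other 5 strong regenerators at 478 to 832), that of the rarer members (396 RPM, others 94.2 to 136.9), miR-434-3p (303 RPM, others 58.7 to 149), miR-341 (90.6 RPM, others 18.8 to 39.0), miR-134-5p (97.8 RPM, others 12.4 to 24.3), miR-411-5p (96.4 RPM, others 14 to 33.9) and miR-323-3p (38.8 RPM, others 5.65 to 14.5). Rats 25 and 26 were high together among the 6 weak regenerators at baseline, where a test for a single outlying sample does not see them.

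Rat 25, a weak regenerator, was the highest of its group for miR-382-3p (65.4 RPM, others 7.26 to 23.9), miR-409a-3p (36.8 RPM, others 9.24 to 19.4) and miR-136-5p (32.7 RPM, others 2.64 to 10.6) at week 4, and for miR-487b-3p (113 RPM, others 21.05 to 50.9) and miR-369-3p (39.4 RPM, others 6.65 to 17.8) at week 8. The lowest sample stood apart for miR-376c-3p in rat 3 at week 1 (17.3 RPM, others 42.1 to 54.3) and for miR-434-3p in rat 6 at week 4 (46.2 RPM, others 97.0 to 123), both weak regenerators. In the strong regenerator rat 21, miR-127-3p had 38.7 RPM at week 1 (others 2.93 to 13.5).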

How the results depend on the processing

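The count of members lower at week 8 was 32 as reported. It was 57 with UniSp2 scaling, 12 with filterByExpr (18 members tested) or over the abundant members alone, 17 without rats 25, 26 and 29, and 23 to 31 with each rat left out in turn. It was 30 with the replicate block, and with the other settings between 22 and 32. limma-voom also called 5 members higher (miR-299b-3p, miR-377-5p, miR-412-3p, miR-539-3p and miR-673-3p, with 1 to 4 reads in all samples together). At week 1 the count was 1 as reported, 11 with UniSp2 scaling, 5 with DESeq2, 4 with limma-voom, 5 with the replicate block, 1 to 2 with a rat left out and 0 without rats 25, 26 and 29, and the filters kept between 6 and 51 members for these. At week 4 it was 2 as reported, 7 with UniSp2 scaling, 1 with limma-voom, 1 to 2 with a rat left out (1 without rat 3, 21 or 29) and 1 without rats 25, 26 and 29. No member was called between strong and weak regenerators under any setting. Of all calls over the whole table at week 8, 65.5% were lower as reported, 57.1% with RLE, 55.7% with DESeq2, 49.3% with limma-voom and 99.8% with UniSp2 scaling. At week 1 these shares were 38.5%, 37.7%, 47.6%, 60.5% and 95.1%, with 81.3% for library size, and at week 4 96.3%, 96.3%, 81.8%, 86.7% and 98.4%. The median of the 310 miRNAs above 10 RPM under UniSp2 scaling was -0.32, -0.29 and -2.01 at the 3 later weeks. The difference in members seen between week 8 and baseline was -14.17, and -12.92 at equal depth. Directions that turned belonged to uncalled estimates or to the fit without rats 25, 26 and 29. In that fit log2 fold changes at week 1 were 0.10 for miR-136-3p, 0.16 for miR-487b-3p, 0.067 for miR-341, 0.055 for miR-382-3p, 0.49 for miR-369-3p and 0.063 for miR-410-3p. At week 4 they were 0.27 for miR-487b-3p, 0.039 for miR-494-3p and 0.30 for miR-410-3p. At week 8 they were 0.038 for miR-382-5p, 0.18 for miR-487b-3p, 0.001 for miR-341, 0.32 for miR-382-3p, 0.65 for miR-369-3p, 0.58 for miR-410-3p and 0.13 for miR-136-5p. The estimates of miR-369-3p, near 0 as reported, turned sign often: at week 1 they were 0.17 with limma-voom, 0.078 with the replicate block and 0.032 with only the weeks compared, at week 4 -0.071 with library size and -0.34 with UniSp2 scaling, and at week 8 0.10 with RLE, 0.10 with DESeq2, 0.15 with limma-voom, 0.074 with the replicate block and 0.033 with only the weeks compared. With a rat left out, miR-369-3p ran from -0.17 to 0.15, from -0.15 to 0.27 and from -0.064 to 0.24 at weeks 1, 4 and 8, miR-382-3p from -0.30 to 0.005 at week 8, and miR-410-3p from -0.18 to 0.15 at week 4, where limma-voom gave 0.017, and from -0.43 to 0.021 at week 8. The cause was not tested. The depth limits the rarer members most: below 1 RPM a sample held few reads, and their folds carry little precision.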
